A study of Mus musculus with 24 samples.

Results

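The 6 libraries described here, of 24 in all, followed vehicle-treated 3T3-L1 cells from day 1 to day 3 of adipocyte differentiation. They were chosen by their labels alone as the DMSO libraries of day 1 and of day 3, with 3 replicates a side named by the letters A, B and C. 3T3-L1 is a mouse embryonic fibroblast line that turns into fat-storing adipocytes when induced. The study read new and total mRNA from the same libraries at days −2, 1, 3 and 7, in DMSO or in ML-792, an inhibitor of the enzyme that activates SUMO for conjugation to proteins. Both groups here received DMSO, the vehicle of ML-792, and no inhibitor. The day 1 cells were in induction medium with 10% fetal bovine serum, 1 mM dexamethasone (the concentration the labels give), 0.5 mM IBMX and 10 μg/ml insulin. At day 3 the cultures moved from this mixture to a maintenance medium with insulin, and the labels do not say whether the day 3 cells were collected before or after that change. All cells were given 100 μM 4-thiouridine for 45 min before lysis, so that RNA made in that window carries T to C conversions when sequenced. The model is a single cell line in culture, and the study's methods call the 3 replicates biological.

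Confluent, growth-arrested 3T3-L1 cells that receive dexamethasone, IBMX and insulin re-enter the cell cycle for a limited number of divisions, a step known as mitotic clonal expansion. C/EBPβ and C/EBPδ act early in this programme. PPARγ and C/EBPα take over as the cells leave the cell cycle, and they activate the genes that import, make and store fat. At the same time the cells give up the fibroblast matrix and the pre-adipocyte factor DLK1. Between day 1 and day 3 a culture thus passes from division into early fat cell formation, and the question of the comparison is which transcripts moved over that interval and whether newly made RNA moved with them.

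Summed over all 3′UTR entries, the day 1 libraries held 18788063, 19775903 and 20949260 reads (replicates A, B and C) and those of day 3 held 16587754, 15850964 and 16068873. A gene can have several entries, so a read may be counted more than once in these sums and in the labelled ones. With 1 entry per gene the sums were 12643841, 13512366 and 14114430 at day 1 and 11171792, 10793318 and 10955943 at day 3. Reads with at least 1 T to C conversion, called labelled reads below, numbered 235369, 238454 and 285203 at day 1 and 190933, 146222 and 163161 at day 3. The labelled percentage of a library was 1.27 ± 0.0798% at day 1 and 1.03 ± 0.115% at day 3 (mean ± SD, n = 3), with all 3 day 3 libraries below those of day 1. A two-sided exact permutation test gave p = 0.1, the smallest p that 3 libraries against 3 allow. Replicates of a day correlated at r of 0.961 to 0.98 in total reads and 0.692 to 0.774 in labelled reads, across the 3′UTR entries that passed the filter. Values below are normalised reads, meaning the reads of a gene divided by the effective size of the library and multiplied by the mean effective size of the 24 libraries. They are given in the order A, B, C and compare libraries, not genes. Log2 fold changes are day 3 over day 1 in edgeR's quasi-likelihood fit, ± their standard error, and a gene was called higher or lower at a Benjamini-Hochberg adjusted p under 0.01.

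Of 13331 genes tested in total reads, 1508 rose (11.3%) and 1582 fell (11.9%) between day 1 and day 3. The 3 libraries of one day lay entirely above those of the other in 1507 of the genes that rose and 1580 of those that fell. The calls rest on these same libraries, so the separation describes the called genes and is no separate support for them. The median log2 fold change of the genes that rose was 1.47, and 272 of them passed 3. That of the genes that fell was −1.68, and 196 passed −3. The median over all tested genes was −0.02. Counts of the gene lists below are read beside these shares of 11.3% higher and 11.9% lower. Without replicate A the counts were 564 higher and 634 lower, and without replicate C 730 and 834. Without replicate B they were 1916 and 1835, and with the replicate letter as a block 2079 and 2102. Fewer cells of a kind and less RNA per cell cannot be told apart in these bulk cultures, for this and every result that follows.

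Markers of both cell states were checked before the rest. Adipoq, the gene of the hormone adiponectin (3′UTR entry at chr16:23157595-23157968, plus strand of mm10), had 314, 377 and 251 at day 1 and 28894, 28315 and 34127 at day 3. The day 3 libraries all lay far above those of day 1 (log2 fold change 6.60 ± 0.28, edgeR adjusted p = 6.34e-10). Fabp4, the fatty acid carrier of the adipocyte cytosol (chr3:10204342-10204519, minus strand), had 1759, 2405 and 1069.7 at day 1 and 133782, 192879 and 82309.6 at day 3. Its groups did not overlap either (log2 fold change 6.29 ± 0.39, edgeR adjusted p = 1.51e-08), and within each day replicate B was highest and C lowest. Markers of pre-adipocytes and of dividing cells had their high values at day 1. Dlk1, the membrane protein that marks pre-adipocytes and holds them back from differentiating (chr12:109460361-109463336, plus strand), had 49879.6, 35938 and 44968 at day 1 and 3709, 2949 and 4051 at day 3. All day 3 values were below all day 1 values (log2 fold change −3.61 ± 0.26, edgeR adjusted p = 6.16e-08). Top2a, the DNA topoisomerase of dividing cells (chr11:98992947-98993413, minus strand), had 9062, 6803 and 9672 at day 1 and 2726, 2054 and 2335 at day 3 and likewise showed no overlap (log2 fold change −1.84 ± 0.19, edgeR adjusted p = 2.50e-06). Mki67, the antigen by which dividing cells are stained, had few reads, 158, 56.5 and 153 at day 1 and 75.5, 10.4 and 11.6 at day 3, and its groups overlapped (log2 fold change −1.90 ± 0.66, edgeR adjusted p = 0.0430). It passed the threshold with the replicate letter as a block (edgeR adjusted p = 0.00209) and without replicate A (0.00753).

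**Figure D1:**
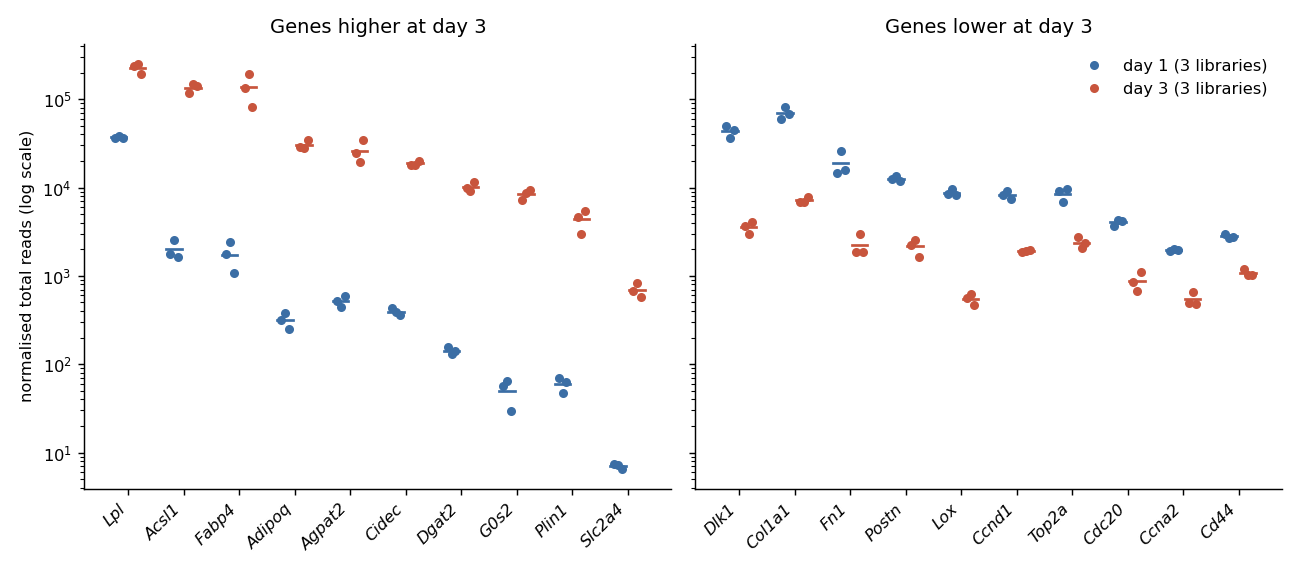
Normalised total reads (log axis) of 10 genes that were higher and 10 that were lower at day 3. Each point is a DMSO library, 3 at day 1 and 3 at day 3, and each bar is the mean of a day. In all 20 genes the 6 points separate by day, from Slc2a4 at 6.60 to 7.36 at day 1 to Lpl at 195429 to 249276 at day 3.

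Of the 30 adipogenic transcription factors tested, 11 rose and 3 fell, with a median log2 fold change of 0.41 against −0.02 over all genes. Without replicate A the counts were 5 higher and 1 lower and without C 5 higher and 1 lower, and with the replicate block 12 higher and 5 lower. Cebpa, which sustains the terminal programme together with PPARγ, had 1526, 1284 and 1490.4 at day 1 and 10469.7, 7502 and 12640.5 at day 3. It was 7.12-fold higher at day 3 with no overlap (log2 fold change 2.83 ± 0.25, edgeR adjusted p = 4.24e-07). Nr1h3, the oxysterol receptor LXRα, had 106, 98.4 and 65.2 at day 1 and 884, 1009.6 and 901 at day 3 (log2 fold change 3.38 ± 0.22, edgeR adjusted p = 2.77e-08). Klf15, a Krüppel-like factor of mature adipocytes, went from single-digit values of 1.84, 5.47 and 4.12 to 62.4, 137 and 82.2 (log2 fold change 4.57 ± 0.40, edgeR adjusted p = 4.83e-07). Ppargc1b, a coactivator of mitochondrial genes that is named here after its values were seen, had 167, 208 and 192 at day 1 and 2992, 2883 and 2755 at day 3 (log2 fold change 3.93 ± 0.17, edgeR adjusted p = 6.34e-10). These 4 genes had no day 3 library within the range of day 1.

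Pparg, the nuclear receptor at the centre of the programme, had 2135, 2397 and 1910.2 at day 1 and 5390.2, 5309 and 6309 at day 3. Its 3 day 3 libraries all lay above day 1, yet the gene was not called (log2 fold change 1.40 ± 0.43, edgeR adjusted p = 0.0241). With the replicate block its edgeR adjusted p was 0.0719, and without replicates A and C it was 0.15 and 0.17. It passed the threshold without replicate B (9.02e-07). It also passed with DESeq2, with only the 6 libraries of days 1 and 3, and with no filter beyond 1 read. Other factors were not called or fell. Cebpb had 3533, 5429 and 3312 at day 1 and 2768, 5431 and 3686 at day 3, and the groups overlapped (log2 fold change −0.05 ± 0.26, edgeR adjusted p = 0.924). Cebpd fell from 4513, 5805 and 3897 to 2288, 3220.1 and 2876 (log2 fold change −0.76 ± 0.18, edgeR adjusted p = 0.00507), a call that was lost without replicate A (adjusted p = 0.146) and without C (0.0308). Klf5, an early activator of Pparg, had 6603, 3661 and 8065 at day 1 and 2254, 1359.7 and 2318 at day 3 and fell (log2 fold change −1.63 ± 0.31, edgeR adjusted p = 0.000946), again without passing when replicate A (0.0295) or C (0.0111) was left out. Srebf1, the lipogenic SREBP gene, had 699.8, 808 and 609 at day 1 and 857, 995 and 908 at day 3 and was not called (log2 fold change 0.38 ± 0.19, edgeR adjusted p = 0.156). Ebf3, an early B-cell factor family member named for being the third factor that fell, had 755, 697 and 793 at day 1 and 325, 246 and 239.5 at day 3 (log2 fold change −1.47 ± 0.19, edgeR adjusted p = 3.19e-05).

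Fat cells take up fatty acids that lipoprotein lipase releases outside the cell, and activate them to acyl-CoA inside it. Of 19 genes of fatty acid uptake and binding, 8 rose and 2 fell (median 0.59), and without replicate A or C 1 fell. Lpl, the lipase itself, had 36564, 38312 and 36516 at day 1 and 235850.0, 249276 and 195429 at day 3, a 6.11-fold rise without overlap (log2 fold change 2.61 ± 0.17, edgeR adjusted p = 2.15e-08). Cd36, a fatty acid transporter of the cell surface, had 63.4, 57.4 and 67.6 at day 1 and 2579, 4044 and 1891 at day 3 (log2 fold change 5.49 ± 0.28, edgeR adjusted p = 2.81e-09). Its day 3 values spread more than those of day 1, but the lowest was still far above them. Acsl1, the main acyl-CoA synthetase of adipocytes, had 1789, 2579.7 and 1658 at day 1 and 118702, 147282 and 139978 at day 3 and was 67.4-fold higher (log2 fold change 6.07 ± 0.25, edgeR adjusted p = 4.55e-10). Fabp5, a second fatty acid carrier, had 134, 189 and 101 at day 1 and 4265, 3295 and 4365 at day 3 (log2 fold change 4.81 ± 0.25, edgeR adjusted p = 3.64e-09). Release, transport, activation and carriage each had a member that rose. The genes that fell, named for that, were Lrp1, a lipoprotein receptor (log2 fold change −1.93 ± 0.22, edgeR adjusted p = 8.48e-06), and Acsl5, a second acyl-CoA synthetase (log2 fold change −1.01 ± 0.18, edgeR adjusted p = 0.000506), the latter with 0.0627 without A and 0.0169 without C.

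Fatty acid synthesis turns citrate into saturated fatty acids that are then lengthened and desaturated. Of 25 genes of de novo lipogenesis, desaturation and elongation 16 rose and 2 fell (median 1.25), with 12 higher and 0 lower without replicate A and 12 higher and 1 lower without C. Fasn, the fatty acid synthase, had 3565, 2643 and 3690.1 at day 1 and 28706, 22158 and 29663 at day 3 with no overlap (log2 fold change 3.02 ± 0.23, edgeR adjusted p = 1.04e-07). Scd1, the desaturase that makes monounsaturated fatty acids, had 2879, 3420.4 and 2291 at day 1 and 19592, 25227 and 18630.3 at day 3 (log2 fold change 2.88 ± 0.24, edgeR adjusted p = 2.92e-07). Me1, which supplies NADPH, rose too (log2 fold change 1.69 ± 0.19, edgeR adjusted p = 6.96e-06). Acaca, the acetyl-CoA carboxylase that commits carbon to fat, had 353, 220.4 and 401 at day 1 and 710.2, 523 and 808 at day 3, and its call (log2 fold change 1.07 ± 0.27, edgeR adjusted p = 0.00672) was lost without replicate A (adjusted p = 0.0852) and without C (0.0489). Acly, the citrate lyase at the head of the pathway, had 1606, 1568 and 1979 at day 1 and 2001, 1993 and 2326 at day 3 and was not called (log2 fold change 0.29 ± 0.17, edgeR adjusted p = 0.211). Thrsp, a lipogenic nuclear protein named here after its values were seen, had 18.4, 21.0 and 45.4 at day 1 and 1346, 2176 and 1796 at day 3 (log2 fold change 5.95 ± 0.53, edgeR adjusted p = 7.07e-07). The genes that fell were the desaturases Fads1 (log2 fold change −0.77 ± 0.19, edgeR adjusted p = 0.00550) and Fads3 (log2 fold change −1.33 ± 0.22, edgeR adjusted p = 0.000294), named for that, with 0.0991 and 0.0134 without A and, for Fads1, 0.106 without C.

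Triglyceride synthesis had 12 genes higher and 1 lower of 20 (median 1.49), and the lower gene, Agpat4 (log2 fold change −0.84 ± 0.18, edgeR adjusted p = 0.00267), was not called without replicate A (0.0713) or C (0.0333). Agpat2, whose loss causes lipodystrophy, had 518, 447 and 596 at day 1 and 24782, 19466 and 34240.3 at day 3, a 50.3-fold rise (log2 fold change 5.65 ± 0.26, edgeR adjusted p = 1.19e-09). Dgat2, which adds the last fatty acid, had 157, 129 and 139 at day 1 and 9826, 9106 and 11619 at day 3 (log2 fold change 6.16 ± 0.25, edgeR adjusted p = 4.55e-10). Gpd1, which makes glycerol phosphate from a glycolytic intermediate, had 143, 155 and 81.7 at day 1 and 4612, 4824 and 5512 at day 3 (log2 fold change 5.30 ± 0.27, edgeR adjusted p = 2.81e-09). In all 3 genes the days were apart by more than the spread of the replicates. Pck1, the glyceroneogenic enzyme, was close to absent at day 1 with 0, 3 and 0 reads, and its counts at day 3 were 141, 129 and 120. The ratio of its scaled counts was 167 (95% interval 56.8 to 815), an interval that covers counting error only. Lpin1, the phosphatidic acid phosphatase, had 606, 960.1 and 509 at day 1 and 6594, 9296 and 6700.4 at day 3 (log2 fold change 3.44 ± 0.26, edgeR adjusted p = 1.02e-07), and Gpam, the acyltransferase of the initial step, rose as well (log2 fold change 1.71 ± 0.18, edgeR adjusted p = 3.46e-06).

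Storage requires a coated droplet and enzymes that reopen it. Among 24 genes of the lipid droplet coat and lipolysis 16 rose and 1 fell (median 1.99), with 12 higher and 0 lower without replicate A and 18 higher and 2 lower with the replicate block. The gene that fell was Plin3, a coat protein of many tissues named for that (log2 fold change −0.82 ± 0.19, edgeR adjusted p = 0.00342, 0.0955 without A). Plin1, the perilipin of adipocyte droplets, had 69.0, 47.4 and 63.5 at day 1 and 4679, 2989 and 5481 at day 3 (log2 fold change 6.19 ± 0.31, edgeR adjusted p = 2.81e-09). Cidec, which fuses droplets, had 429, 389.9 and 365 at day 1 and 18230.0, 17801 and 20164 at day 3 (log2 fold change 5.57 ± 0.27, edgeR adjusted p = 2.59e-09). G0s2, the inhibitor of the lipase ATGL, had 56.1, 63.8 and 29.7 at day 1 and 7288, 8659.9 and 9431 at day 3 and was among the 10 genes with the largest rise (log2 fold change 7.41 ± 0.40, edgeR adjusted p = 3.81e-09). The lipases themselves rose as well. Pnpla2, the gene of ATGL, had 3103, 2636 and 3248 at day 1 and 29066, 23556 and 35298 at day 3 (log2 fold change 3.29 ± 0.20, edgeR adjusted p = 1.57e-08). Lipe, hormone-sensitive lipase, had 1358, 874 and 1427 at day 1 and 17179.5, 16071 and 22835 at day 3 (log2 fold change 3.94 ± 0.23, edgeR adjusted p = 7.30e-09). Plin4 rose 4.98-fold (log2 fold change 2.32 ± 0.22, edgeR adjusted p = 1.29e-06), and Plin2, the coat protein of small droplets in most cells and named here after its values were seen, 3.03-fold (log2 fold change 1.60 ± 0.17, edgeR adjusted p = 2.61e-06).

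Fat cells are also an endocrine organ. Of 23 adipokines and secreted adipocyte proteins 11 rose and 2 fell (median 1.94), and without replicate A the counts were 7 higher and 2 lower. The genes that fell were Cxcl12, described below, and the apolipoprotein gene Apod, named for that (log2 fold change −2.67 ± 0.22, edgeR adjusted p = 2.37e-07). Retn, the gene of resistin, had 90.1, 83.8 and 82.5 at day 1 and 6178, 7061 and 7227 at day 3 (log2 fold change 6.32 ± 0.34, edgeR adjusted p = 3.81e-09). Cfd, the complement protease adipsin, had 117, 156 and 105 at day 1 and 2455, 4245 and 2842 at day 3 (log2 fold change 4.66 ± 0.33, edgeR adjusted p = 6.20e-08). Agt, angiotensinogen, rose 12.3-fold (log2 fold change 3.62 ± 0.20, edgeR adjusted p = 5.62e-09), and Hp, haptoglobin, 7.16-fold (log2 fold change 2.84 ± 0.21, edgeR adjusted p = 8.44e-08). Lcn2, lipocalin 2, had 2876, 2458 and 3104 at day 1 and 3500.5, 4563 and 4438 at day 3 and was not called (log2 fold change 0.57 ± 0.19, edgeR adjusted p = 0.0377), but passed with the replicate block (adjusted p = 0.00899). Angptl4, which restrains lipoprotein lipase, had 4085, 4578 and 4248 at day 1 and 2914, 3407 and 3314 at day 3 and was not called (log2 fold change −0.42 ± 0.16, edgeR adjusted p = 0.0596).

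Insulin signalling had 8 higher and 4 lower of 29 genes, a median of 0.17, and without replicate A or C the counts were 5 higher and 2 lower. Within it Slc2a4, the insulin-responsive glucose transporter GLUT4, had 7.36, 7.29 and 6.60 at day 1 and 674, 822 and 576 at day 3. That was the lowest adjusted p of the 13331 genes (log2 fold change 6.59 ± 0.25, edgeR adjusted p = 3.03e-10), and no library of either day came near the other. Slc2a1, the basal transporter GLUT1, had 971, 1248 and 864 at day 1 and 818, 991 and 914 at day 3 with overlap and was not called (log2 fold change −0.18 ± 0.18, edgeR adjusted p = 0.506). Hk2, the hexokinase of insulin-sensitive tissue, named after its values were seen, had 331, 368 and 272 at day 1 and 1409, 1637 and 1489 at day 3 (log2 fold change 2.22 ± 0.18, edgeR adjusted p = 2.14e-07). Insr, the insulin receptor, had 212, 302 and 266 at day 1 and 604, 917 and 605 at day 3 (log2 fold change 1.45 ± 0.22, edgeR adjusted p = 0.000118), with an adjusted p of 0.0104 without replicate A. Irs1, its docking protein, had 481, 335 and 487 at day 1 and 739.7, 498 and 756 at day 3 and was not called (log2 fold change 0.61 ± 0.27, edgeR adjusted p = 0.113), with 0.00206 under the block. The genes that fell, named for that, were the hexokinase Hk1 (log2 fold change −1.51 ± 0.21, edgeR adjusted p = 6.29e-05), the cytokine brake Socs3 (log2 fold change −1.35 ± 0.31, edgeR adjusted p = 0.00361), the receptor adaptor Grb14 (log2 fold change −1.86 ± 0.48, edgeR adjusted p = 0.00794) and Igf1, described below. Socs3 and Grb14 were not called without A (0.0321 and 0.0611) or C (0.0381 and 0.0222). The tissue hexokinase genes Hk1 and Hk2 were thus called in opposite directions.

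Mitochondria supply the citrate and ATP for fat synthesis. All 79 tested subunits of oxidative phosphorylation had a log2 fold change above 0, with a median of 1.01, and 43 of them rose. With the replicate block 66 rose. Without replicate A this count was 10, and without C it was 7. Cox4i1, a core subunit of cytochrome oxidase, had 6143, 3133 and 7314 at day 1 and 14029, 10291 and 21231 at day 3 and no overlap (log2 fold change 1.46 ± 0.34, edgeR adjusted p = 0.00447), but was not called without replicate A (adjusted p = 0.0552) or C (0.0268). Cycs, cytochrome c, named after its values were seen, had 383, 549 and 300.2 at day 1 and 1814, 3263 and 1193 at day 3 (log2 fold change 2.35 ± 0.42, edgeR adjusted p = 0.000600), with 0.0140 without A. Of 76 mitochondrial ribosomal proteins 33 rose and 1 fell (median 0.79), with 4 higher and 0 lower without A, 6 higher and 0 lower without C, 56 higher and 1 lower without B and 54 higher and 1 lower under the block. Mrpl12 and Mrps6, named after their values were seen, stand for either direction. Mrpl12 had 1411, 1431 and 1254 at day 1 and 5954, 5988 and 5816 at day 3 (log2 fold change 2.12 ± 0.17, edgeR adjusted p = 2.05e-07). Mrps6 had 11795, 11671 and 10002 at day 1 and 6418, 6582 and 5778 at day 3 and fell (log2 fold change −0.83 ± 0.18, edgeR adjusted p = 0.00229), but not without A (0.0748) or C (0.0437). The 72 cytosolic ribosomal proteins had a median of 0.02, with 0 higher and 1 lower. The lower gene was Rpl37a, which had 2311, 3101 and 2297 at day 1 and 1067, 1573 and 1408 at day 3 (log2 fold change −0.93 ± 0.20, edgeR adjusted p = 0.00226) and lost its call without A (0.0730) and C (0.0233).

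The tricarboxylic acid cycle and pyruvate dehydrogenase had 20 genes higher of 25 and 1 lower (median 1.31). Without replicate A these were 11 higher and 0 lower, and without C 13 higher and 0 lower. Cs, citrate synthase, had 2021, 3113 and 2068 at day 1 and 5071, 7339.6 and 5321 at day 3 (log2 fold change 1.30 ± 0.23, edgeR adjusted p = 0.000457), with an adjusted p of 0.0228 without A and 0.0144 without C. Idh3a, the NAD-dependent isocitrate dehydrogenase subunit, had 869, 1568 and 885 at day 1 and 6519, 13637 and 7427 at day 3 with no overlap (log2 fold change 3.05 ± 0.41, edgeR adjusted p = 4.07e-05). The gene that fell was Idh2, the NADP-dependent mitochondrial enzyme, with 4665, 4501 and 4211 at day 1 and 2238, 1665 and 2148 at day 3 (log2 fold change −1.14 ± 0.20, edgeR adjusted p = 0.000342), a call lost without A (0.0180) and C (0.0111). Mpc1, a subunit of the mitochondrial pyruvate carrier, had 46.0, 68.3 and 49.5 at day 1 and 212, 493 and 382 at day 3 (log2 fold change 2.73 ± 0.42, edgeR adjusted p = 0.000129). Idh3a, Idh2 and Mpc1 were named after their values were seen. Pdha1, a pyruvate dehydrogenase subunit, had 3418, 5203 and 3437 at day 1 and 6348, 9316 and 5922 at day 3 and was called with the replicate block (edgeR adjusted p = 1.51e-05, against 0.0205 without it) and without B (0.000210).

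Genes that burn fatty acids rose as well as those that make them, with 17 genes higher and 1 lower of 24 (median 1.19), 7 higher and 1 lower without replicate A and 9 higher and 1 lower without C. Acadm, the medium-chain acyl-CoA dehydrogenase, had 748, 896 and 614 at day 1 and 1987, 2759 and 2199.9 at day 3 (log2 fold change 1.62 ± 0.26, edgeR adjusted p = 0.000175), and was just short of a call without C. Hadha, of the trifunctional protein, had 3379, 3181 and 3731 at day 1 and 6326, 5160.4 and 7344 at day 3 (log2 fold change 0.87 ± 0.18, edgeR adjusted p = 0.00192), with 0.0779 without A and 0.0475 without C. Crat, carnitine acetyltransferase, had 451, 594 and 437 at day 1 and 6533, 9193 and 8649 at day 3 (log2 fold change 4.04 ± 0.22, edgeR adjusted p = 4.20e-09). The exception was Cpt1a, the liver-type carnitine palmitoyltransferase, which had 1116, 1421 and 1080.5 at day 1 and 376, 322 and 355 at day 3 and fell (log2 fold change −1.78 ± 0.17, edgeR adjusted p = 9.80e-07). Crat and Cpt1a were named after their values were seen. Cpt2, the inner-membrane transferase, had 908, 1636 and 1045 at day 1 and 1676, 2457 and 1967 at day 3 and was called under the replicate block (edgeR adjusted p = 0.000325, against 0.0359 without it).

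Branched-chain amino acids are a carbon source for fat in adipocytes, and 19 of 24 genes of their breakdown rose while 1 fell (median 1.32). Without replicate A the counts were 8 higher and 0 lower, and without C 11 higher and 1 lower. Bcat2, the mitochondrial transaminase of the initial step, had 253, 109 and 343 at day 1 and 2495, 1828 and 3924 at day 3 (log2 fold change 3.55 ± 0.46, edgeR adjusted p = 2.69e-05). Bckdha, of the dehydrogenase that follows, had 264, 298 and 299 at day 1 and 805, 762 and 1061 at day 3 (log2 fold change 1.61 ± 0.18, edgeR adjusted p = 6.26e-06). The gene that fell was Bcat1, the cytosolic transaminase, which had 136, 177 and 129 at day 1 and 23.0, 46.4 and 42.8 at day 3 (log2 fold change −1.98 ± 0.31, edgeR adjusted p = 0.000150) and had an adjusted p of 0.0115 without A. It was named after its values were seen. The transaminases of the mitochondrion and of the cytosol thus moved in opposite directions.

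Cholesterol is made from the same acetyl-CoA, and 14 of 24 genes of its synthesis and import rose and 0 fell (median 1.26), or 16 higher and 2 lower with the replicate block. Hmgcs1, the synthase that feeds the pathway, had 1639, 1355 and 1471 at day 1 and 9708, 11532 and 8126 at day 3 (log2 fold change 2.72 ± 0.20, edgeR adjusted p = 7.98e-08). Cyp51, a later enzyme, had 458, 566 and 509.7 at day 1 and 5188, 6681 and 4789 at day 3 (log2 fold change 3.44 ± 0.22, edgeR adjusted p = 2.15e-08), and Insig1, the sterol-sensing brake on SREBP, rose 6.98-fold (log2 fold change 2.80 ± 0.23, edgeR adjusted p = 2.44e-07). Cyp51 and Insig1 were named after their values were seen. Sqle, squalene epoxidase, had 329, 594 and 326 at day 1 and 769, 1036 and 941 at day 3 (log2 fold change 1.14 ± 0.24, edgeR adjusted p = 0.00228), a call lost without replicate A (0.0503) and C (0.0565).

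**Figure D2:**
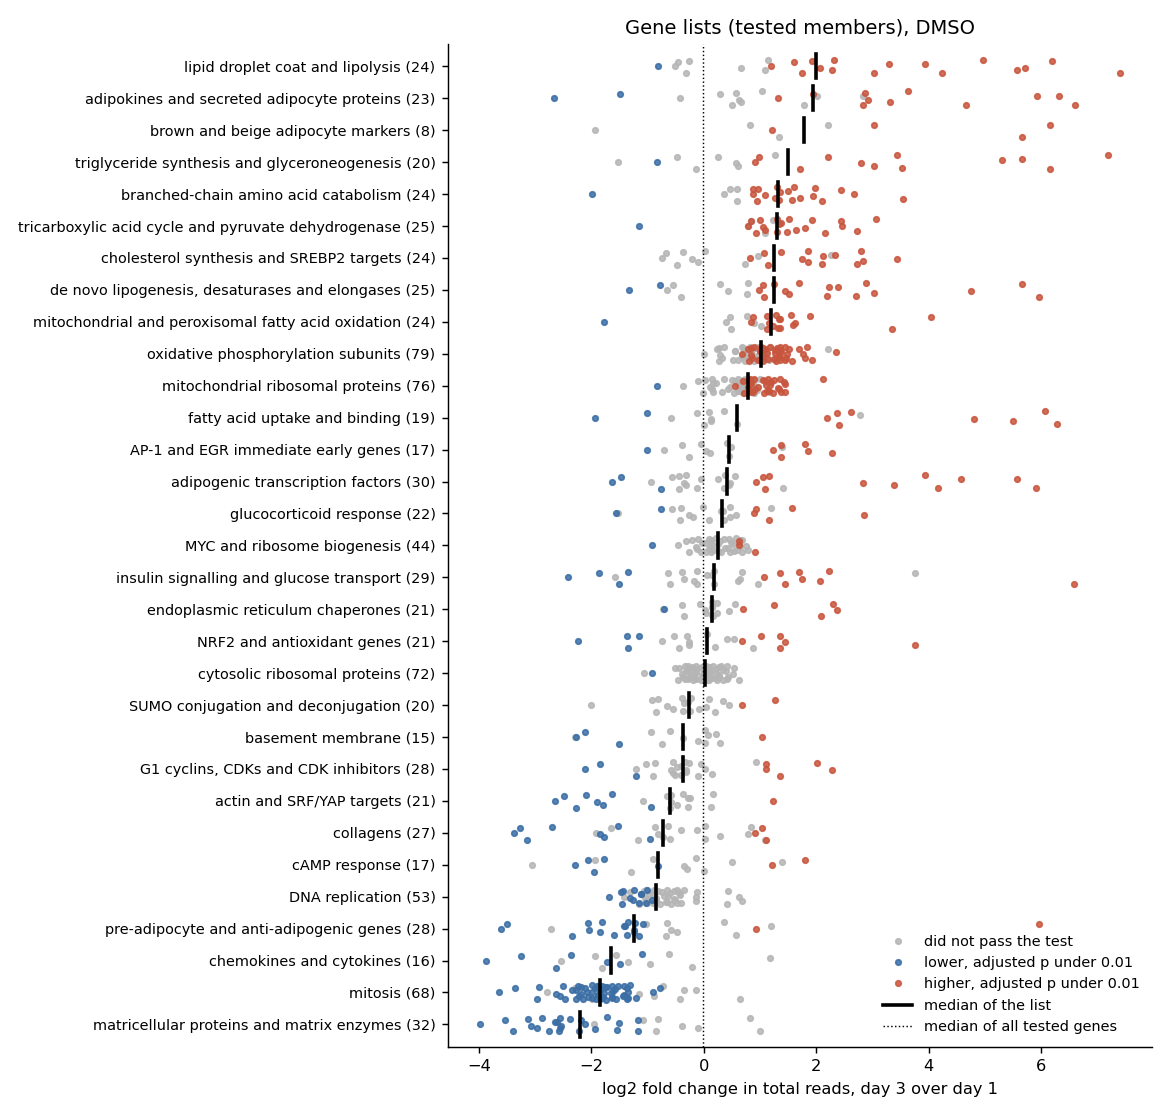
Log2 fold change, day 3 over day 1 in DMSO, of every tested gene in each list with at least 8 tested members (number in brackets). Points are genes, the black bar is the list's median and the dotted line is the median of all tested genes, −0.02. Lipid droplet genes, at a median of 1.99, sit at the upper end, and matrix and mitosis genes, at −2.20 and −1.84, at the lower end.

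Mitosis genes fell almost as a block. Of 68 tested, 57 fell and 0 rose, beside the 11.9% of all genes that fell, and the median was −1.84. Without replicate A 34 fell. Their summed normalised reads were 92342 ± 4751 at day 1 and 29142 ± 2507 at day 3 (mean ± SD, n = 3). Cdc20, the activator of the anaphase-promoting complex, had 3704, 4263 and 4187 at day 1 and 861, 678 and 1121 at day 3 with no overlap (log2 fold change −2.19 ± 0.27, edgeR adjusted p = 1.90e-05). Ccna2, cyclin A2, had 1937, 1998 and 1943 at day 1 and 489, 655 and 484 at day 3 (log2 fold change −1.85 ± 0.21, edgeR adjusted p = 7.33e-06). Kif20a, a kinesin of cytokinesis named after its values were seen, had 3296, 5285 and 3774 at day 1 and 509, 525 and 579 at day 3 (log2 fold change −2.94 ± 0.22, edgeR adjusted p = 1.14e-07). For 3 central regulators the groups were also apart, but the calls were lost without replicate A, and for Ccnb1 and Plk1 also without C. Cdk1, the mitotic kinase, had 5018, 3532 and 4973 at day 1 and 1553, 1005 and 1543 at day 3 (log2 fold change −1.72 ± 0.28, edgeR adjusted p = 0.000213), and 0.0136 without A. Ccnb1, cyclin B1, had 1959, 1157 and 1706 at day 1 and 676, 354 and 502 at day 3 (log2 fold change −1.65 ± 0.28, edgeR adjusted p = 0.000363), just short of a call without A and with 0.0114 without C. Plk1, polo-like kinase 1, had 3536, 1856 and 3499 at day 1 and 1257, 675 and 1159.5 at day 3 (log2 fold change −1.52 ± 0.33, edgeR adjusted p = 0.00221), with 0.0369 and 0.0375. With the replicate block their adjusted p values were 8.54e-08 for Cdk1, 6.95e-07 for Ccnb1 and 1.71e-07 for Plk1.

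Many of these mitosis genes held in their promoters a short element known from such genes, which was looked for with the calls known. The cell cycle genes homology region (CHR), TTTGAA on either strand, is where the complexes that time mitotic genes are known to bind, usually near a CCAAT box. In the 300-base RefSeq promoters of GRCm38.p6, from 250 bases before the start to 50 after it, 39 of the 54 tested mitosis genes with a promoter there (72.2%) held TTTGAA, and 34 (63%) held it together with CCAAT. Over all 27025 genes with a promoter the shares were 20.2% and 7.97%, and over the 9956 tested genes with one 14.2% and 5.9%. Of the mitosis genes that fell, 31 of 44 (70.5%) held TTTGAA, beside the 72.2% of all tested mitosis genes. The element was thus not more frequent among the members that fell. The windows of 4 regulators named above are shown with the element in capitals, on the strand of the gene, with 10 bases on either side.
Cdc20: acagttgggtTTTGAAggagccaatg
Cdk1: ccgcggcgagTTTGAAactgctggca
Plk1: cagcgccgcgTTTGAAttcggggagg
Top2a: tagataaaggTTCAAAtgaaactagg
The windows lie at chr4:118437346-118437371, minus strand for Cdc20, chr10:69352912-69352937, minus strand for Cdk1, chr7:122159455-122159480, plus strand for Plk1 and chr11:99024197-99024222, minus strand for Top2a. The element begins 18 bases before the annotated start in Cdc20, 15 before it in Cdk1 and 23 before it in Top2a, where it reads as the reverse complement, and in Plk1 it lies within the transcribed part. A match of letters is a description and not a binding site.

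Genes that copy DNA had fewer calls. Of 53 tested, 13 fell and 0 rose, with a median of −0.85 and 49 of them below 0. The count was 0 higher and 3 lower without replicate A, 0 higher and 5 lower without C and 0 higher and 20 lower without B, and with the replicate block it was 2 higher and 30 lower. Mcm5, of the replicative helicase, had 1373, 1325 and 1464 at day 1 and 603, 628 and 677 at day 3 (log2 fold change −1.13 ± 0.20, edgeR adjusted p = 0.000523), with an adjusted p of 0.0248 without A and 0.0195 without C. Mcm3 and Prim1, named after their values were seen, are a second helicase subunit and the DNA primase. Mcm3 had 714, 1324 and 645 at day 1 and 305, 481 and 349 at day 3 (log2 fold change −1.24 ± 0.31, edgeR adjusted p = 0.00605), was not called without A, and had 0.0381 without C. Prim1 had 451, 676 and 494 at day 1 and 228, 339.6 and 229 at day 3 (log2 fold change −1.02 ± 0.26, edgeR adjusted p = 0.00682), and 0.0839 and 0.0738. Pcna, the sliding clamp, had 340.2, 1137 and 354 at day 1 and 118, 546 and 229 at day 3. Replicate B was highest on both days, the groups overlapped and the gene was not called (log2 fold change −1.04 ± 0.58, edgeR adjusted p = 0.209), but it was under the block (adjusted p = 0.00225). Mcm2 (log2 fold change −0.77 ± 0.29, edgeR adjusted p = 0.0602) and Rrm2 (log2 fold change −0.71 ± 0.22, edgeR adjusted p = 0.0244) were likewise called with the block (0.000263 and 0.00641). The E2F element TTCCCGC, known from S phase genes, was held by 17 of 43 replication promoters (39.5%), 2 of 54 mitosis promoters (3.7%), 9.52% of the promoters of all tested genes and 5.29% of all RefSeq promoters, on either strand. The letters of TTCCCGC and TTTGAA are not contained in each other. The windows of the 2 genes named above are shown with the element in capitals, which in Mcm3 reads as the reverse complement.
Mcm3: aacttccgtgGCGGGAAaacttgggaa
Prim1: gcctgtcttgTTCCCGCcaattctcgt
These lie at chr1:20820277-20820303, minus strand and chr10:128015190-128015216, plus strand.

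Of 28 G1 regulators 5 were higher and 3 lower (median −0.37), beside 11.3% higher and 11.9% lower over all genes. The counts were 2 higher and 2 lower without replicate A and 5 higher and 5 lower without B. Ccnd1, cyclin D1, had 8275, 9257 and 7439.5 at day 1 and 1863, 1911 and 1980.0 at day 3 and fell without overlap (log2 fold change −2.12 ± 0.16, edgeR adjusted p = 1.12e-07). Cdkn2c, the CDK inhibitor p18, had 518, 577 and 482 at day 1 and 2256, 2616 and 2816 at day 3 and rose (log2 fold change 2.29 ± 0.18, edgeR adjusted p = 1.75e-07). Cdkn1b, the inhibitor p27, fell instead, with 3949, 2852 and 3017 at day 1 and 1816, 1185 and 1244 at day 3 (log2 fold change −1.21 ± 0.23, edgeR adjusted p = 0.00101), a call lost without A (0.0124) and C (0.0292). Cdkn1a, the inhibitor p21, had 8095, 4879.7 and 7818 at day 1 and 14482, 8806 and 16136 at day 3. All its day 3 values were above day 1, and it was called with the replicate block (adjusted p = 3.81e-05) but not without (log2 fold change 0.92 ± 0.29, edgeR adjusted p = 0.0238). E2f1 had 585, 364 and 545 at day 1 and 430.0, 303 and 469.8 at day 3 and was not called (log2 fold change −0.31 ± 0.25, edgeR adjusted p = 0.404). Ccnd2, cyclin D2, rose (log2 fold change 1.36 ± 0.16, edgeR adjusted p = 8.62e-06) and Cdkn2b, the inhibitor p15, fell (log2 fold change −1.85 ± 0.30, edgeR adjusted p = 0.000227), both named after their values were seen. Of the D cyclins named here Ccnd1 was called lower and Ccnd2 higher, and of the CDK inhibitors Cdkn1b and Cdkn2b lower and Cdkn2c higher.

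The induction mixture acts through the glucocorticoid receptor and cAMP. Over all genes 11.3% were called higher and 11.9% lower, and the counts of these lists are read beside those shares. Of 44 MYC and ribosome biogenesis genes 3 rose and 1 fell (median 0.26), with 0 higher and 0 lower without replicate A or C, 7 higher and 1 lower without B and 9 higher and 1 lower with the replicate block. Myc itself had 660.2, 758 and 489 at day 1 and 769, 1258 and 1244 at day 3 and was not called (log2 fold change 0.78 ± 0.47, edgeR adjusted p = 0.246). Of 22 glucocorticoid response genes 5 rose and 2 fell (median 0.33), with 2 higher and 1 lower without A, 1 higher and 1 lower without C and 8 higher and 2 lower under the block. Tsc22d3, the leucine zipper GILZ, had 7666, 8107 and 7951 at day 1 and 2445, 2337 and 3254 at day 3 and fell without overlap (log2 fold change −1.56 ± 0.17, edgeR adjusted p = 5.72e-06). Fkbp5, a chaperone of the receptor, had 10584, 14571 and 10352 at day 1 and 13644, 16135 and 16017 at day 3 and was not called (log2 fold change 0.37 ± 0.17, edgeR adjusted p = 0.131), except without B (0.00486). Sgk1, a kinase, had 685, 927 and 854 at day 1 and 1463, 1914 and 2115 at day 3 (log2 fold change 1.15 ± 0.19, edgeR adjusted p = 0.000254), with 0.0117 without A and 0.0145 without C. Hsd11b1, which regenerates active glucocorticoid and is named after its values were seen, had 113, 369 and 160.0 at day 1 and 1109.6, 2237 and 1269 at day 3 and rose (log2 fold change 2.85 ± 0.41, edgeR adjusted p = 7.84e-05). Per1 (log2 fold change −0.26 ± 0.23, edgeR adjusted p = 0.450) and Zbtb16 (log2 fold change 0.10 ± 0.22, edgeR adjusted p = 0.786) overlapped between the days. Of 17 cAMP response genes 2 rose and 5 fell (median −0.82), with 0 higher and 4 lower without A or C and 4 higher and 8 lower under the block. Sik1, a kinase induced by cAMP, had 1281, 1431 and 1124 at day 1 and 269, 365 and 358 at day 3 and fell (log2 fold change −1.95 ± 0.26, edgeR adjusted p = 3.44e-05). Rgs2, a brake on G protein signals, had 31013, 23179.7 and 27875 at day 1 and 22646, 20790.1 and 23472 at day 3 and was not called (log2 fold change −0.29 ± 0.17, edgeR adjusted p = 0.225), and Nr4a1 (log2 fold change −0.35 ± 0.23, edgeR adjusted p = 0.290), Crem (log2 fold change −0.13 ± 0.30, edgeR adjusted p = 0.795) and Pde4b (log2 fold change 0.50 ± 0.29, edgeR adjusted p = 0.222) were not called either, although Pde4b was under the block (0.00327).

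Immediate early genes respond to signals within minutes. Of 17 AP-1 and EGR genes 6 rose and 1 fell (median 0.45), with 4 higher and 0 lower without replicate A, 3 higher and 0 lower without C and 7 higher and 2 lower under the block. Fos had 268, 204 and 223 at day 1 and 690.5, 1323 and 1353 at day 3, with replicate A the lowest of day 3 and still above day 1 (log2 fold change 2.28 ± 0.26, edgeR adjusted p = 6.26e-06). Egr1, a zinc finger factor of the serum response, had 4359, 2604 and 3249 at day 1 and 7850.1, 7899 and 8282 at day 3 (log2 fold change 1.23 ± 0.18, edgeR adjusted p = 0.000105), and 0.0124 without C. Egr2, Ier2 and Fosl2 were named after their values were seen. Egr2 had 404, 639 and 303 at day 1 and 1588, 1807 and 1472 at day 3 (log2 fold change 1.86 ± 0.24, edgeR adjusted p = 2.41e-05), and Ier2 had 2422, 1613 and 2267 at day 1 and 4199.7, 5994 and 6152 at day 3 (log2 fold change 1.37 ± 0.21, edgeR adjusted p = 0.000133). These 4 genes were higher in every day 3 library. Fosl2 was the one that fell (log2 fold change −1.01 ± 0.22, edgeR adjusted p = 0.00230), and not without A (0.0397) or C (0.0390). Fosl1 had 1658, 1915 and 1599 at day 1 and 1435, 1243 and 1301 at day 3 and was not called (log2 fold change −0.38 ± 0.18, edgeR adjusted p = 0.142).

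Genes that mark or maintain the undifferentiated state were mostly lower. Of 28 pre-adipocyte and anti-adipogenic genes 17 fell and 2 rose (median −1.24), with 0 higher and 8 lower without replicate A and 0 higher and 10 lower without C. Besides Dlk1, the receptor gene Pdgfra, a marker of adipocyte progenitors, had 3744, 4765 and 3439 at day 1 and 894, 860.1 and 1098 at day 3 without overlap (log2 fold change −2.07 ± 0.17, edgeR adjusted p = 3.01e-07). Ly6a, the progenitor antigen SCA-1, named after its values were seen, had 4459, 3451 and 4358 at day 1 and 387, 338 and 356 at day 3 (log2 fold change −3.50 ± 0.21, edgeR adjusted p = 9.47e-09). Thy1 had 2297, 2126 and 2275 at day 1 and 566, 579.6 and 476 at day 3 (log2 fold change −2.05 ± 0.17, edgeR adjusted p = 2.98e-07), and Cd44, the hyaluronan receptor, 2946, 2695 and 2763 at day 1 and 1183, 1036 and 1036 at day 3 (log2 fold change −1.37 ± 0.17, edgeR adjusted p = 2.03e-05). All 4 surface genes had day 3 libraries below every day 1 library. Pdgfrb had 263, 348 and 275 at day 1 and 123, 162 and 113 at day 3 (log2 fold change −1.15 ± 0.18, edgeR adjusted p = 0.000174), with 0.0186 without A and 0.0118 without C. Klf10 had 1319, 1514 and 1206 at day 1 and 650.0, 529.7 and 557 at day 3 (log2 fold change −1.22 ± 0.23, edgeR adjusted p = 0.000866), with 0.0134 and 0.0194. Klf3, a repressor, had 2638, 978 and 2529.6 at day 1 and 1935, 698 and 1493 at day 3, with replicate B lowest at both days and overlap between them (log2 fold change −0.58 ± 0.44, edgeR adjusted p = 0.369), and was called under the block (0.00528). The genes that rose, named for that, were Wnt5b, a Wnt ligand with 1, 0 and 0 reads at day 1 and 17, 23 and 28 at day 3 (ratio of scaled counts 87.5 (95% interval 15.2 to 3506)), and Ddit3, the stress factor CHOP (log2 fold change 0.93 ± 0.17, edgeR adjusted p = 0.000779). Neither was called without A (0.0211 and 0.0275) or C (0.0302 and 0.0126).

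The matrix list had the lowest median of the lists with at least 8 tested members. Of 32 matricellular proteins and matrix enzymes 24 fell and 0 rose (median −2.20), and their summed normalised reads were 289147 ± 14258 at day 1 and 76499.9 ± 3443 at day 3. Lox, which cross-links collagen and elastin, had 8364, 9562 and 8148 at day 1 and 562, 625 and 469 at day 3, a 15.7-fold fall (log2 fold change −3.98 ± 0.19, edgeR adjusted p = 1.98e-09). Fn1, fibronectin, had 14704, 26198 and 15727 at day 1 and 1858, 2991 and 1857 at day 3 (log2 fold change −3.08 ± 0.28, edgeR adjusted p = 6.78e-07). Postn, periostin, had 12599.6, 13371 and 11958 at day 1 and 2265, 2567 and 1625 at day 3 (log2 fold change −2.55 ± 0.22, edgeR adjusted p = 3.42e-07). Each kept its days apart. Mmp2, a gelatinase, had 34032, 20939 and 35155 at day 1 and 6228, 3390.4 and 5896 at day 3 (log2 fold change −2.54 ± 0.33, edgeR adjusted p = 2.93e-05), and Timp3, an inhibitor of such proteases, 331, 267 and 272 at day 1 and 25.2, 18.5 and 31.2 at day 3 (log2 fold change −3.53 ± 0.22, edgeR adjusted p = 1.34e-08). Sparc had 63110.0, 79893 and 76381 at day 1 and 15064, 16532 and 19369 at day 3 (log2 fold change −2.11 ± 0.18, edgeR adjusted p = 3.00e-07), and Dcn, the proteoglycan decorin, fell 5.98-fold (log2 fold change −2.58 ± 0.17, edgeR adjusted p = 2.26e-08). Mmp2, Timp3, Sparc and Dcn were named after their values were seen. Thbs1, thrombospondin 1, had 666, 535 and 662 at day 1 and 389.5, 334 and 332 at day 3 and was called under the block (0.000985) but not without it (log2 fold change −0.82 ± 0.24, edgeR adjusted p = 0.0166).

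Of 27 collagens tested 8 were lower and 3 higher (median −0.72), beside 11.9% lower and 11.3% higher over all genes. Without replicate A or C the counts were 0 higher and 6 lower, and with the replicate block 5 higher and 11 lower. The genes that rose, named for that, were Col15a1 (log2 fold change 1.03 ± 0.19, edgeR adjusted p = 0.000604), Col11a2 (log2 fold change 0.91 ± 0.24, edgeR adjusted p = 0.00905) and Col7a1 (log2 fold change 1.11 ± 0.29, edgeR adjusted p = 0.00936). The main fibrillar genes fell. Col1a1 had 60103, 81488 and 68713 at day 1 and 6917, 6925 and 7887 at day 3 (log2 fold change −3.27 ± 0.22, edgeR adjusted p = 3.42e-08), and Col1a2, named after its values were seen, 119281, 119617 and 120756 at day 1 and 19464, 15407 and 20674 at day 3 (log2 fold change −2.69 ± 0.26, edgeR adjusted p = 1.30e-06). Col3a1 had 56593, 71645 and 58779 at day 1 and 18025, 15756 and 20895 at day 3 (log2 fold change −1.77 ± 0.20, edgeR adjusted p = 6.20e-06). Col4a1, of the basement membrane that fat cells keep around themselves, had 68573, 72998 and 71988 at day 1 and 72912, 69981 and 74209 at day 3 with overlap and was not called (log2 fold change 0.02 ± 0.15, edgeR adjusted p = 0.932). Col6a3 had 16042, 23973 and 14621 at day 1 and 29098, 38779.8 and 26089 at day 3, all of day 3 above day 1, and was called under the block (0.00436) but not without it (log2 fold change 0.78 ± 0.23, edgeR adjusted p = 0.0167). Of 15 basement membrane genes 1, Col15a1 again, rose and 3 fell (median −0.37). Those that fell were Lamb2 (log2 fold change −2.27 ± 0.23, edgeR adjusted p = 2.17e-06) and Nid2 (log2 fold change −1.52 ± 0.20, edgeR adjusted p = 3.10e-05), named for that, and Sparc. Lama4 (log2 fold change −0.09 ± 0.19, edgeR adjusted p = 0.771) and Nid1 (log2 fold change 0.08 ± 0.22, edgeR adjusted p = 0.827) overlapped between the days.

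The actin cytoskeleton is remodelled as fibroblasts round up. Actin and SRF or YAP targets had 8 lower and 1 higher of 21 (median −0.60). Acta2, smooth muscle actin, had 2020.2, 1828 and 2598 at day 1 and 428, 207 and 513 at day 3 (log2 fold change −2.49 ± 0.33, edgeR adjusted p = 3.42e-05). Myl9, a myosin light chain, had 109, 118 and 152 at day 1 and 44.9, 17.4 and 15.0 at day 3 (log2 fold change −2.28 ± 0.34, edgeR adjusted p = 9.74e-05), and Actn1, an actin cross-linker named after its values were seen, fell 3.71-fold (log2 fold change −1.89 ± 0.20, edgeR adjusted p = 3.68e-06). Actb had 70193, 53731 and 79023 at day 1 and 48274, 37288 and 60241 at day 3 with overlap and was not called (log2 fold change −0.48 ± 0.23, edgeR adjusted p = 0.146), nor was Tagln at 20.2, 4.55 and 9.90 at day 1 and 15.3, 2.32 and 10.4 at day 3 (log2 fold change −0.29 ± 0.56, edgeR adjusted p = 0.761). Of 16 chemokines and cytokines 7 fell and 0 rose (median −1.64). Cxcl12, the stromal chemokine, had 11658, 18899 and 11587 at day 1 and 4390.1, 5536 and 5051 at day 3 (log2 fold change −1.49 ± 0.21, edgeR adjusted p = 6.36e-05). Csf1, the macrophage growth factor, had 589, 654 and 621 at day 1 and 131, 75.3 and 155 at day 3 (log2 fold change −2.36 ± 0.25, edgeR adjusted p = 3.19e-06). Ccl2 had 157, 229.5 and 153 at day 1 and 87.5, 131 and 61.3 at day 3 and was called under the block (7.33e-05) but not without it (log2 fold change −0.95 ± 0.31, edgeR adjusted p = 0.0301). Igf1, a growth factor of the insulin signalling list, named after its values were seen, had 1728, 1762 and 1772 at day 1 and 451, 337 and 196 at day 3 (log2 fold change −2.42 ± 0.25, edgeR adjusted p = 2.21e-06), and Ptx3, a secreted pattern receptor chosen the same way, 1086, 2273 and 977 at day 1 and 125, 179.7 and 150.4 at day 3 (log2 fold change −3.25 ± 0.33, edgeR adjusted p = 2.33e-06). The 1 gene of the actin list that rose was Amotl2, a partner of YAP named for that (log2 fold change 1.23 ± 0.18, edgeR adjusted p = 8.58e-05).

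Stress and SUMO lists had medians nearer to 0. Their counts stand beside 11.3% higher and 11.9% lower over all genes. Endoplasmic reticulum chaperones had 5 higher and 1 lower of 21 (median 0.15), with Xbp1 at 1668, 2135 and 1869.8 at day 1 and 3899, 4548 and 5054 at day 3 (log2 fold change 1.25 ± 0.24, edgeR adjusted p = 0.000866), a call lost without replicate A (0.0313) and C (0.0231), and Hspa5 not called (log2 fold change 0.24 ± 0.23, edgeR adjusted p = 0.491). Without A or C the counts were 3 higher and 0 lower. Herpud1, of the degradation of misfolded proteins, rose (log2 fold change 2.30 ± 0.18, edgeR adjusted p = 1.34e-07), as did the cochaperone Dnajb9 (log2 fold change 2.36 ± 0.22, edgeR adjusted p = 7.82e-07), and the disulfide isomerase P4hb fell (log2 fold change −0.71 ± 0.17, edgeR adjusted p = 0.00583) but not without A (0.115) or C (0.0542). NRF2 and antioxidant genes had 6 higher and 4 lower of 21 (median 0.06), with 3 higher and 2 lower without A and 3 higher and 3 lower without C. Nqo1, a quinone reductase, had 905, 705 and 956 at day 1 and 342, 372 and 441 at day 3 (log2 fold change −1.15 ± 0.21, edgeR adjusted p = 0.000628), with 0.0550 without A and 0.0129 without C. Slc7a11, the cystine transporter, had 8.28, 6.38 and 6.60 at day 1 and 140.1, 77.7 and 74.1 at day 3 (log2 fold change 3.76 ± 0.46, edgeR adjusted p = 1.57e-05). Fth1, the ferritin heavy chain, had 96718, 144355 and 102721 at day 1 and 37996, 45777 and 50815 at day 3 (log2 fold change −1.35 ± 0.22, edgeR adjusted p = 0.000192), with 0.0122 without A. Hmox1 was called under the block (0.00135) but not without it (log2 fold change 0.88 ± 0.29, edgeR adjusted p = 0.0334). The SUMO enzymes and their proteases had 2 higher and 0 lower of 20 (median −0.26), 1 higher and 0 lower without A or C and 2 higher and 4 lower with the block. Senp2, a SUMO protease, rose (log2 fold change 0.67 ± 0.17, edgeR adjusted p = 0.00832), but not without A (0.120) or C (0.0773). Sumo3, a modifier, overlapped between the days (log2 fold change −0.22 ± 0.23, edgeR adjusted p = 0.523). Sumo2 was near the detection limit in its counted entry, with 5.52, 16.4 and 15.7 at day 1 and 1.09, 6.95 and 1.16 at day 3, and was not called (edgeR adjusted p = 0.148). Sequence shared with other gene copies was not examined, so these counts may not give its expression. Herpud1, Dnajb9, P4hb, Slc7a11, Fth1 and Senp2 were named after their values were seen.

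Defining markers of several other lineages were below the filter. Of 13 brown and beige adipocyte markers 8 passed it, 4 of them rose (2 higher and 0 lower without replicate A or C), and Ucp1 did not pass. Elovl3, an elongase of brown fat, had 2.76, 18.2 and 1.65 at day 1 and 327, 490.3 and 321 at day 3 (log2 fold change 5.65 ± 0.50, edgeR adjusted p = 5.78e-07), and Slc36a2, an amino acid transporter, had 0, 0 and 1 reads at day 1 and 31, 24 and 23 at day 3, a ratio of scaled counts of 100.4 (95% interval 17.5 to 4014). Cidea (log2 fold change 3.03 ± 0.68, edgeR adjusted p = 0.00332) and Ppargc1a (log2 fold change 1.22 ± 0.28, edgeR adjusted p = 0.00351) were not called without A (0.0199 and 0.127) or C (0.0923 and 0.0137). Of 9 skeletal muscle markers 2 passed, Acta1 at 15.6, 18.2 and 5.77 at day 1 and 175, 67.2 and 94.9 at day 3 (log2 fold change 3.09 ± 0.50, edgeR adjusted p = 0.000224) and Des at 11.0, 10.0 and 10.7 at day 1 and 37.2, 55.6 and 40.5 at day 3 (log2 fold change 2.06 ± 0.37, edgeR adjusted p = 0.000605), both calls being lost without replicate A (0.0196 and 0.0175), and Myod1 and Myog, which define the lineage, did not. Of 9 macrophage and leukocyte markers 4 passed. Among them Cd68 had 33.1, 37.3 and 37.1 at day 1 and 117, 59.1 and 140.0 at day 3 (log2 fold change 1.55 ± 0.39, edgeR adjusted p = 0.00722) and Cd14 had 145, 159 and 121 at day 1 and 25.2, 32.5 and 49.8 at day 3 (log2 fold change −1.99 ± 0.30, edgeR adjusted p = 0.000129), with 0.137 and 0.0150 without A and, for Cd68, 0.0973 without C, while Csf1r had 10.1, 0 and 0 at day 1 and 1.09, 2.32 and 5.79 at day 3. The defining genes Ptprc and Adgre1 were below the filter. Epithelial Krt14 had 6.44, 0.911 and 3.30 at day 1 and 169.6, 181 and 185 at day 3 and rose (log2 fold change 5.61 ± 0.55, edgeR adjusted p = 1.52e-06), with Epcam and Cdh1 below the filter. Endothelial Pecam1 had 2.76, 7.29 and 4.12 at day 1 and 8.75, 10.4 and 13.9 at day 3 and was not called (log2 fold change 1.20 ± 0.76, edgeR adjusted p = 0.272), with Cdh5 below the filter, and of the bone and cartilage genes Runx2 had 244, 155 and 233 at day 1 and 143, 153 and 97.2 at day 3 and was not called (log2 fold change −0.68 ± 0.23, edgeR adjusted p = 0.0340) except without B (0.00182), with Sp7 and Acan below the filter. The summed normalised reads of each list were 26.7, 28.2 and 16.5 at day 1 and 212, 123 and 135 at day 3 for muscle, 189, 197 and 162 at day 1 and 143, 93.9 and 196 at day 3 for macrophages and 14.7, 11.8 and 19.0 at day 1 and 176, 183 and 189 at day 3 for epithelium. Their part in any other result was not tested. These members were named after their values were seen.

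The 10 genes with the largest fitted rise were mostly at or near 0 at day 1. Gm26588, an unnamed locus, had no read in any day 1 library and 37, 54 and 44 reads at day 3, at least 19.3-fold higher against a floor of 3 reads in a library. Fabp12, a fatty acid binding protein, had 0 reads at day 1 and 34, 13 and 29 at day 3, at least 10.8-fold higher. Pygl, liver glycogen phosphorylase, had 0 and 23, 26 and 11 reads (at least 8.54-fold). Rufy4 (at least 9.27-fold), Gm39772 (at least 8.53-fold) and Arhgef37 (at least 7.17-fold) were also at 0 throughout day 1, and Arhgef37 was not called without replicate A (edgeR adjusted p = 0.0232) or C (0.0268). Hcar2, the nicotinic acid receptor that restrains lipolysis, had 0, 2 and 0 reads at day 1 and 93, 92 and 101 at day 3, a ratio of scaled counts of 184 (95% interval 50.5 to 1527). Gm15411 had 0, 0 and 2 and 106, 88 and 87 reads, a ratio of 181 (95% interval 49.6 to 1500.1).

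The 10 genes with the largest fitted fall were at or near 0 at day 3 in the same way. Megf6, an EGF-repeat protein, had 121, 96 and 119 reads at day 1 and 0 in every day 3 library, at least 29.0-fold lower. Abca9, a lipid transporter, had 49, 23 and 59 and 0 reads (at least 11.2-fold lower). Wnt6, a Wnt ligand, had 34, 22 and 33 and 0 (at least 7.67-fold lower). Gm30233 (at least 10.6-fold), Aipl1 (at least 7.96-fold), Gpr161 (at least 5.23-fold), C1s2 (at least 3.52-fold) and Itgb4 (at least 3.46-fold) were at 0 at day 3 as well. Of these Aipl1 (0.0106), Gpr161 (0.0149), C1s2 (0.0142) and Itgb4 (0.0428) had an edgeR adjusted p above the threshold without replicate A, C1s2 (0.0148) and Itgb4 (0.0437) without C, and Itgb4 (0.0210) without B. Fsd1 had 48, 63 and 77 and 0, 0 and 1 reads, a ratio of day 3 to day 1 of 0.00684 (95% interval 0.000172 to 0.0386). Gldc, the glycine decarboxylase, had 38, 41 and 76 and 1, 0 and 0 reads, a ratio of 0.00830 (95% interval 0.000209 to 0.0469).

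Labelled reads report RNA made in the 45 min before lysis, and also any background of T to C mismatches, since 1 conversion was enough. Of 6434 genes tested 95 rose (1.48%) and 129 fell (2.00%), and the libraries of the days did not overlap in 93 and 129 of them. That separation too comes from the libraries that gave the calls. The median over all 6434 genes was −0.35, and scaling by the labelled reads in place of the total reads moved it to −0.09 and the calls to 154 higher and 106 lower. Without replicate A the calls were 32 higher and 62 lower, and without C 42 and 55. With an estimated background of T to C reads taken off they were 92 higher and 123 lower. All 95 genes that rose in labelled reads had risen in total reads, of 866 such genes tested, and 125 of the 129 that fell had fallen in total reads, of 982. The totals contain the labelled reads of the same libraries. The other 4 were Id1, Enc1, Atxn7 and Ptgs2, none of which was called in total reads (edgeR adjusted p of 0.0296, 0.0220, 0.245 and 0.0203), although Enc1 (0.00164) and Ptgs2 (0.00264) were with the replicate block. Id1, an inhibitor of differentiation factors, had labelled values of 973, 1986 and 1139.8 at day 1 and 695, 599 and 687 at day 3 (log2 fold change −1.05 ± 0.27, edgeR adjusted p = 0.00862). Enc1, an actin-binding protein, had 389, 412 and 492 at day 1 and 123, 123 and 171 at day 3 (log2 fold change −1.63 ± 0.32, edgeR adjusted p = 0.000321), Atxn7 7.36, 32.8 and 23.1 at day 1 and 2.19, 3.48 and 3.47 at day 3 (log2 fold change −2.75 ± 0.69, edgeR adjusted p = 0.00695) and Ptgs2, cyclooxygenase 2, 8.28, 14.6 and 12.4 at day 1 and 0, 2.32 and 2.31 at day 3 (log2 fold change −2.85 ± 0.65, edgeR adjusted p = 0.00262), whose adjusted p was 0.0450 without A and 0.0205 without C. All 4, named for being the exceptions, were not called without A or C, with adjusted p of 0.0428 and 0.0797 for Id1, 0.0276 and 0.0218 for Enc1 and 0.0391 and 0.0921 for Atxn7. Id1 and Atxn7 were not called without B either (0.0278 and 0.0553), where the log2 fold change of Id1 was −0.61.

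Several adipocyte genes had labelled reads at day 3 where day 1 had almost none. Some of them had few total reads at day 1 too, with normalised values of 15.6, 4.55 and 4.95 for Ffar2 and 16.6, 21.0 and 22.3 for Mrap. A labelled count of 0 there does not show that no RNA was made. Adipoq had labelled reads of 0, 1 and 1 at day 1 and 156, 148 and 143 at day 3, a ratio of scaled counts of 288 (95% interval 79.1 to 2382). Cd36 had 0 at day 1 and 23, 37 and 14 at day 3 (at least 10.6-fold), Gramd1b, a cholesterol carrier, 0 and 27, 33 and 18 (at least 11.1-fold), and Ffar2, a receptor for short-chain fatty acids, 0 and 16, 19 and 19 (at least 7.72-fold). Mrap, the partner of the ACTH receptor, rose from 0 (at least 7.13-fold), as did Sh2b2, an adaptor of the insulin receptor (at least 5.73-fold), though Sh2b2 was not called without replicate A (0.0199) or C (0.0340). Cidec had normalised labelled reads of 4.60, 0.911 and 0 at day 1 and 169.6, 129 and 159.7 at day 3 (log2 fold change 6.33 ± 0.59, edgeR adjusted p = 1.36e-11), and Pla2g16, a phospholipase of adipocytes, 0.920, 3.64 and 0 at day 1 and 77.7, 67.2 and 82.2 at day 3 (log2 fold change 5.56 ± 0.62, edgeR adjusted p = 3.00e-09). G0s2 had labelled counts of 1, 1 and 3 and 241, 211 and 262, a ratio of 184 (95% interval 78.4 to 568), and Agpat9, a glycerol phosphate acyltransferase, 0, 2 and 0 and 26, 52 and 25, a ratio of 66.3 (95% interval 17.9 to 554).

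Genes with labelled reads in every library of both days give a level on each scale. Lpl had labelled values of 274, 231 and 311 at day 1 and 1735, 1439.6 and 1188 at day 3 (log2 fold change 2.42 ± 0.29, edgeR adjusted p = 1.13e-08), beside 2.61 in total reads. Fabp4 had 24.8, 15.5 and 22.3 at day 1 and 843, 1052 and 640.0 at day 3 (log2 fold change 5.33 ± 0.40, edgeR adjusted p = 2.00e-15), beside 6.29, and Acsl1 19.3, 25.5 and 26.4 at day 1 and 926, 871 and 866 at day 3 (log2 fold change 5.22 ± 0.37, edgeR adjusted p = 1.30e-15), beside 6.07. Col1a2 had 1316, 1279 and 1466 at day 1 and 270.3, 148 and 273 at day 3 (log2 fold change −2.55 ± 0.29, edgeR adjusted p = 5.59e-09), beside −2.69. Ptn, the growth factor pleiotrophin, had 126, 154 and 131 at day 1 and 6.57, 6.95 and 3.47 at day 3 (log2 fold change −4.56 ± 0.44, edgeR adjusted p = 2.30e-11), beside −4.03. Dlk1 had 191, 140.3 and 165 at day 1 and 16.4, 11.6 and 30.1 at day 3 (log2 fold change −3.09 ± 0.42, edgeR adjusted p = 3.04e-07), beside −3.61. In all 6 genes the labelled values of the days did not overlap, and the labelled and total changes had the same sign.

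Several of the largest labelled falls were in genes with few labelled reads or none at day 3. Some matrix genes still had many, such as Col3a1, a fibrillar collagen named after its values were seen, with normalised labelled values of 7566, 5471 and 6240.3 at day 1 and 2314, 1013 and 2191 at day 3 (log2 fold change −1.80 ± 0.30, edgeR adjusted p = 9.59e-05). The labelled percentage of Col3a1, given below, was far above the library means on both days. Whether its labelled reads all stem from new RNA was not tested. Cdh11, a mesenchymal cadherin, had 60, 50 and 50 labelled reads at day 1 and none at day 3, at least 13.9-fold lower, beside total values of 4898, 6987 and 4579 at day 1 and 418, 475 and 420.1 at day 3. Fgf7, a fibroblast growth factor, had 16, 31 and 29 and 1, 0 and 0 labelled reads, a ratio of 0.0169 (95% interval 0.000423 to 0.0972). Fbln5, an elastic fibre protein, had 26, 20 and 22 and 0, 1 and 0, a ratio of 0.0189 (95% interval 0.000472 to 0.109), and an adjusted p of 0.0139 without replicate A. Cxcl5, a neutrophil chemokine, had 28, 18 and 38 and 0, 2 and 0, a ratio of 0.0306 (95% interval 0.00365 to 0.114), with both day 3 reads in replicate B. Pdp1, the phosphatase of pyruvate dehydrogenase, had 11, 18 and 29 and 0, 0 and 1, a ratio of 0.0222 (95% interval 0.000552 to 0.129), and was not called without A (0.0180) or C (0.0101). Twist2, a mesenchymal transcription factor, had 46, 38 and 64 and 3, 3 and 0, a ratio of 0.0522 (95% interval 0.0188 to 0.116), with 0.0126 without C. Susd6, Akap13 and Dpysl3 had ratios of 0.0384 (95% interval 0.0103 to 0.101), 0.0495 (95% interval 0.0132 to 0.131) and 0.0515 (95% interval 0.00607 to 0.196). Both day 3 reads of Dpysl3 were in replicate B, and it was not called without A (0.0855) or C (0.0429).

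By list, and beside 1.48% called higher over all genes, labelled calls were 7 higher of 16 tested for lipid droplets, 5 of 14 for fatty acid uptake, 5 of 15 for triglyceride synthesis, 5 of 20 for cholesterol synthesis and 4 of 20 for lipogenesis, with none lower. Without replicate A these were 4, 5, 3, 1 and 1, and without C cholesterol synthesis had 1 and lipogenesis 2. Among transcription factors 2 of 25 rose. They were Ppargc1b and Cebpa. Ppargc1b (log2 fold change 2.27 ± 0.57, edgeR adjusted p = 0.00670) was not called without replicate A (0.0447), B (0.0122) or C (0.0758). Cebpa had labelled values of 38.6, 20.0 and 24.7 at day 1 and 89.7, 71.9 and 146 at day 3 (log2 fold change 1.88 ± 0.45, edgeR adjusted p = 0.00452), and its call was lost without A (0.0209) and C (0.236). Pparg had 69.9, 84.7 and 51.1 at day 1 and 96.3, 60.3 and 79.8 at day 3, overlapped and was not called (log2 fold change 0.20 ± 0.44, edgeR adjusted p = 0.867). Matrix genes had 10 lower of 25, pre-adipocyte genes 8 of 25 with 1 (Ddit3) higher, and chemokines 5 of 11, and without A these were 6, 3 with 0 higher, and 3. Without C the pre-adipocyte and chemokine genes had 2 each. Cxcl12 and Csf1 were among the chemokines. Cxcl12 (log2 fold change −1.79 ± 0.42, edgeR adjusted p = 0.00324) was not called without A (0.0264), B (0.0825, log2 fold change −1.19) or C (0.0282), and Csf1 (log2 fold change −2.60 ± 0.52, edgeR adjusted p = 0.000470) was not without A (0.0113) or C (0.0742). Of 42 mitosis genes 40 had a labelled log2 fold change below 0 (median −1.49, beside −0.35 over all genes). The summed labelled values of that list were 1251 ± 229 at day 1 and 514 ± 99.9 at day 3 (mean ± SD, n = 3). Of 28 replication genes 20 were below 0 (median −0.62). Few of these falls were called: mitosis genes had 1 lower of 42 and replication genes 0 of 28, beside 2.00% lower over all genes. The mitosis gene was Knstrn, a spindle protein named for being the exception, with 40.5, 54.7 and 34.6 at day 1 and 8.75, 2.32 and 3.47 at day 3 (log2 fold change −3.11 ± 0.75, edgeR adjusted p = 0.00455), and it was not called without A (0.0242), B (0.0398) or C (0.0383). Top2a had labelled values of 88.3, 86.5 and 138 at day 1 and 38.3, 31.3 and 18.5 at day 3 and was not called (log2 fold change −1.82 ± 0.49, edgeR adjusted p = 0.0136), although the days did not overlap and it passed under the replicate block (0.00405) and without B (0.00320). Of the immediate early genes 3 of 17 rose, among them Fos with 18.4, 10.9 and 18.1 at day 1 and 73.3, 71.9 and 92.6 at day 3 (log2 fold change 2.31 ± 0.36, edgeR adjusted p = 7.39e-06) and Egr2 with 27.6, 24.6 and 26.4 at day 1 and 85.4, 125 and 102 at day 3 (log2 fold change 1.99 ± 0.35, edgeR adjusted p = 6.23e-05), the latter with 0.0104 without C.

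**Figure D3:**
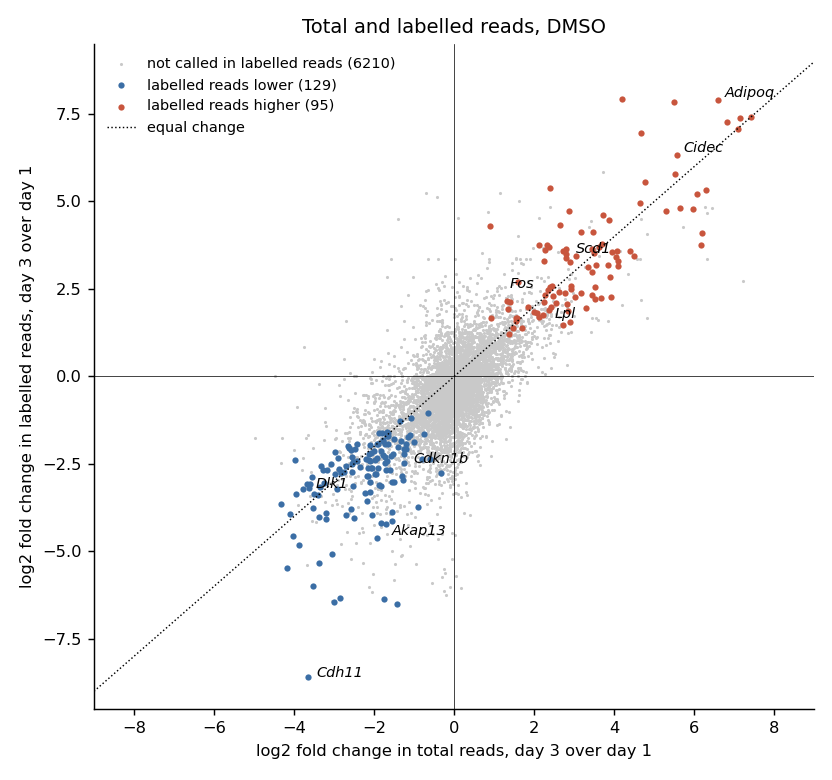
Log2 fold change, day 3 over day 1 in DMSO, in total reads (x axis) against labelled reads (y axis) of the 6434 genes tested in both. Each point is a gene, with the 95 called higher and the 129 called lower in labelled reads in colour, and the dotted line marks an equal change. The 95 higher genes all lie to the right of 0, and the median of the genes on the y axis is −0.35.

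The labelled share of a gene, its labelled over its unlabelled reads, was tested against day in the same libraries. Of 6434 genes 0 had a higher share at day 3 (0.00%) and 0 a lower one (0.00%) by edgeR, with 119 higher and 525 lower at an unadjusted p under 0.05. limma on the log ratio called 0 and 0, with 180 and 546 unadjusted. The median log2 change of the share was −0.31. With a filter of at least 10 reads summed over the libraries 3 genes were lower. Col3a1 stood apart in level, with a labelled percentage of 13.4, 7.64 and 10.6 at day 1 and 12.8, 6.43 and 10.5 at day 3, beside library means of 1.27 and 1.03. With entries above 30 percent labelled left out, 222 genes were called in labelled reads in place of 224.

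In libraries that the DMSO comparison did not use, labelled percentages were summarised over the genes of each class that were tested in labelled reads. Medians at days 1 and 3 in ML-792 were 0.895 and 0.729 for the 866 such genes that rose. They were 0.962 and 0.999 for the 982 that fell, and 1.02 and 0.913 for the 4586 not called. Over all genes tested in total reads, the counted 3′UTR entry had a median length of 923.5 bases for genes that rose, 1274.5 for genes that fell and 1032 for the rest. These are descriptions with no test.

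The days around the interval place these values. Values of days −2 and 7 are set beside those of days 1 and 3, which these comparisons would share. Means ± SD (n = 3) are given below in the order of days −2, 1, 3 and 7. Adipoq had 289.7 ± 99.9, 314 ± 63.2, 30446 ± 3201 and 108095 ± 6519. Acsl1 had 687 ± 103, 2009 ± 499, 135321 ± 14849 and 80149 ± 8458, with its highest mean at day 3. Thrsp had 20.5 ± 16.3, 28.2 ± 14.9, 1773 ± 415 and 20584 ± 11685, the highest mean being at day 7. Top2a had its highest mean at day 1, with 1338 ± 87.4, 8512 ± 1512, 2372 ± 337 and 319 ± 56.3. Klf5 had its highest mean there too, at 361 ± 90.8, 6109.6 ± 2243, 1977 ± 536 and 595 ± 199.9. Acta2 was highest at day −2, with 50754 ± 17126, 2149 ± 401, 383 ± 158 and 862 ± 222. Hmgcs1 had its lowest mean at day 1, with 6930.4 ± 643, 1488 ± 142, 9789 ± 1704 and 6695 ± 1310.1. The median log2 fold change of the mitosis list was 1.56 up to day 1 from day −2, then −1.84 over the interval, and −2.18 between it and day 7. For lipid droplets the 3 medians were 0.26, 1.99 and 0.83.

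**Figure D4:**
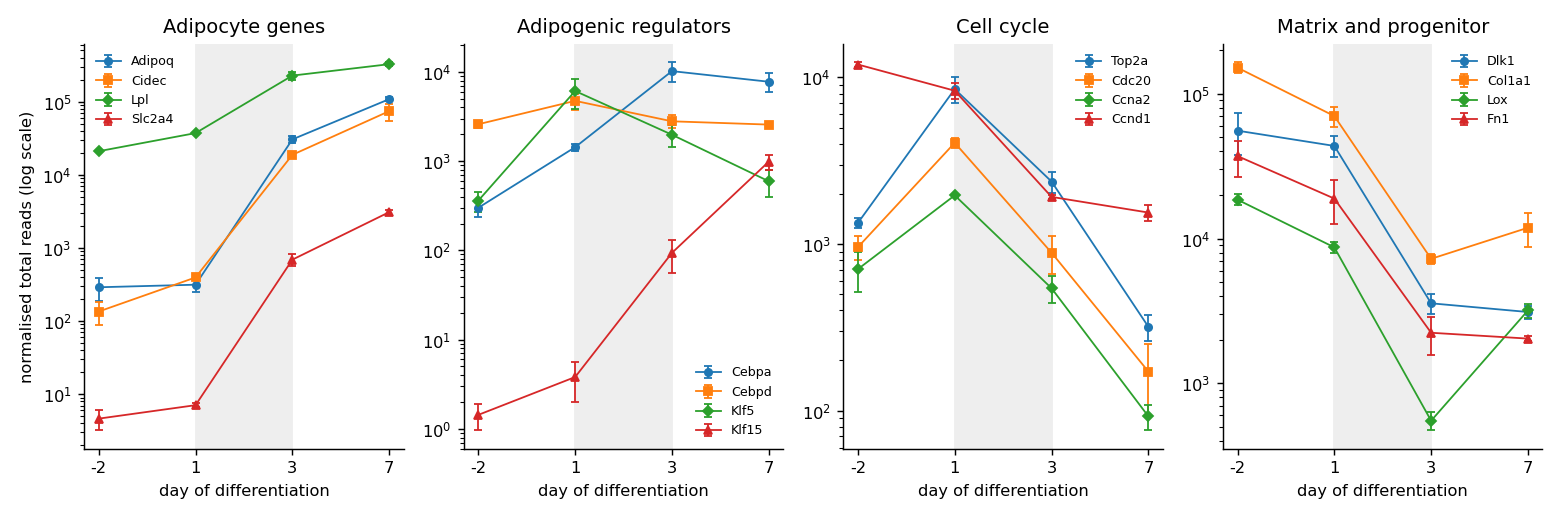
Normalised total reads (log axis) of 16 genes at the 4 sampled days in DMSO, drawn at equal distances. Points are means of 3 libraries and bars are SD, with lower bars that would reach 0 cut short for the log axis. The grey band marks day 1 to day 3, in which adipocyte genes such as Adipoq and Cidec climb, Cdc20 and Ccna2 leave their day 1 peak and Dlk1 and Lox fall.

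The same 2 days were also sampled under 0.5 μM ML-792, in libraries that share none with DMSO. There 1767 genes rose (13.3%) and 1608 fell (12.1%) in total reads, and 92 (1.43%) and 72 (1.12%) in labelled reads. Of the 1508 genes that rose in DMSO 1098 also rose in ML-792, 4 fell and 1455 had the same sign, with a median of 1.27 there. Of the 1582 that fell 1110 also fell, 2 rose and 1541 had the same sign (median −1.31). The difference between the day changes of ML-792 and DMSO was called higher in 139 genes (1.04%) and lower in 95 (0.713%) of 13331. For labelled reads edgeR called 0 (0.00%) and 0 (0.00%), with 390 and 136 at an unadjusted p under 0.05, and DESeq2 called 1 and 1. In total reads the counts of differences were 6 and 2 without replicate A, 13 and 4 without C, 172 and 160 without B, and 350 and 250 with the replicate block.

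Retn had a log2 fold change of 6.32 in DMSO and 3.12 ± 0.33 in ML-792, a difference of −3.20 ± 0.44 (edgeR adjusted p = 0.000126). G0s2 had 7.41 and 4.77 ± 0.30, a difference of −2.64 ± 0.39 (0.000194). Scd1 had 2.88 and 0.95 ± 0.22 (−1.94 ± 0.31, 0.000510), Dgat2 6.16 and 4.30 ± 0.22 (−1.87 ± 0.28, 0.000225), and Thrsp 5.95 and 1.57 ± 0.51 (−4.38 ± 0.73, 0.00112). Gpd1 was the other way round, with 5.30 in DMSO and 7.29 ± 0.26 in ML-792 (2.00 ± 0.29, 0.000222). Matrix and progenitor genes with a called difference fell less. Postn, at −2.55 in DMSO, was at −0.02 ± 0.18 in ML-792 (2.53 ± 0.26, 4.47e-06), Lox at −2.18 ± 0.15 against −3.98 (1.80 ± 0.21, 1.42e-05), and Ly6a at −1.89 ± 0.17 against −3.50 (1.61 ± 0.23, 0.000179). Of the 22 genes named in the text with a called difference, all kept its sign in each of 6 other settings, while 1 was still called without replicate A, 2 without C, 18 without B and 22 with the replicate block. Postn was called in each of these. Mitosis genes fell in both, 57 of 68 in DMSO and 61 in ML-792, with medians of −1.84 and −2.55, and of oxidative phosphorylation genes 43 and 52 of 79 rose. Adipoq (0.0188), Fabp4 (0.828), Lpl (0.968), Cd36 (1.00) and Dlk1 (1.00) had differences with an adjusted p above the threshold, of −1.34 ± 0.32, −0.41 ± 0.38, −0.09 ± 0.20, 0.06 ± 0.34 and 0.00 ± 0.37 on the log2 scale.

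**Figure D5:**
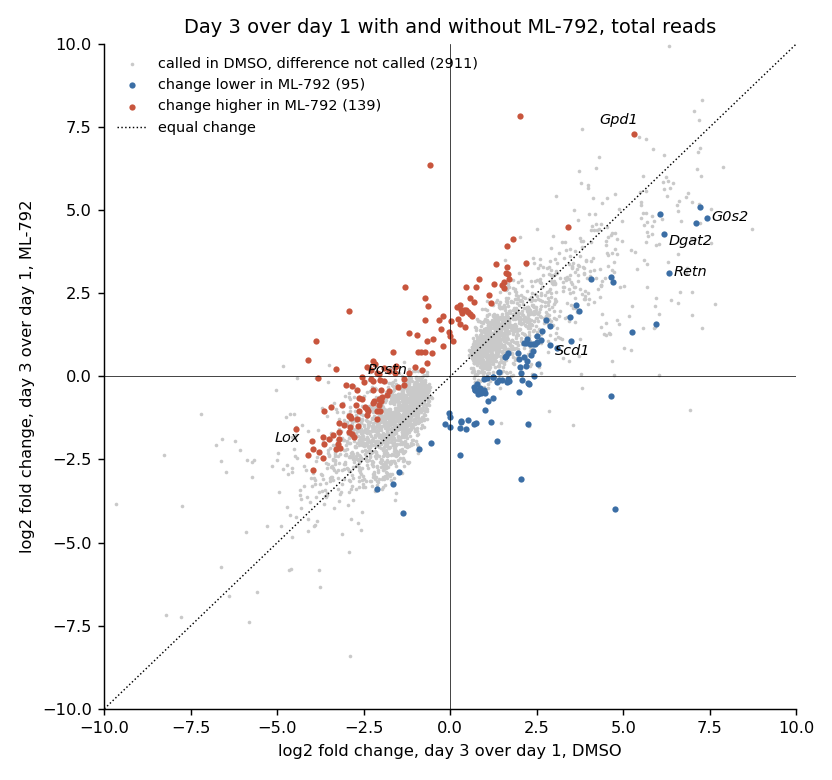
Log2 fold change, day 3 over day 1 in total reads, in DMSO (x axis) against ML-792 (y axis). Grey points are genes called in DMSO without a called difference, coloured points are the 139 genes whose change was higher and the 95 whose change was lower in ML-792, and the dotted line marks an equal change. Postn lies at −0.02 on the y axis, and Retn, G0s2 and Scd1 lie under the dotted line.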

How the data were processed

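Per the labels and the study's methods, cells were labelled with 4-thiouridine, the RNA was alkylated, and 3′ end libraries were made and read on 1 strand. The authors demultiplexed the reads with bcl2fastq (version 2.17.1.14), aligned them by SlamDunk against mm10, and counted reads within RefSeq 3′UTRs. The deposited read counts are raw and come in a pair of tables, one of all reads and one of reads with at least 1 T to C conversion (labelled reads). They hold 91830 entries of 26995 genes, with their lengths and T content in bases, and 6 library columns that belong to no sample here were left out. Replicates were not pooled.

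Groups came from the labels. The 12 DMSO libraries of 4 days were fitted together with edgeR (4.0.16, quasi-likelihood, R 4.3.3) with day as the only factor, and the ML-792 values and the difference between treatments came from a fit of all 24 libraries as 8 conditions. Entries passed a filter of at least 10 reads (15 in total) across the conditions, TMM factors of the total reads scaled both kinds of reads, and p-values were adjusted over all entries that passed (26563 in total and 10589 in labelled reads). Each gene was then read through the entry with the highest mean count. Strand and shared sequence between gene copies were not examined, so genes with near-identical copies are uncertain. Counting intervals are exact at 95% and cover counting error only, since the libraries carry no molecular identifiers in the files. For genes at 0 in every library of a day, folds are bounds against 3 reads per library. limma (3.58.1) and DESeq2 (1.42.0) gave alternatives, the fits were tested on simulated data, and promoters and motifs came from RefSeq promoter sequences of GRCm38.p6.

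Genes in the text are members marked as key in the lists, genes the study names for these assays, and the 10 highest and lowest called changes in total and in labelled reads whose libraries do not overlap and that have at least 10 reads in each library of the higher day. Others are said to be named after their values were seen, and some genes are not reported here. The members and lists were chosen with earlier results of these data known, and the motifs with the calls known. The replicate letters pair the libraries only in part in total reads. The deviations of day 1 and day 3 libraries of the same letter from their day's mean correlated at 0.251 (A), 0.336 (B) and 0.106 (C). Between different letters these values ran from −0.286 (day 1 B with day 3 A) to 0.127 (day 1 C with day 3 A). The main calls used no replicate block, and counts with it are given beside them.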

Additional observations from a re-analysis of the deposited data

Results flagged for a closer look

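The day 3 minus day 1 change in total reads differed between ML-792 and DMSO in 139 genes (higher in ML-792) and 95 genes (lower) by edgeR's interaction test, and 22 of them are named in the report. The differences below are log2 changes in ML-792 minus those in DMSO, and no explanation was tested. Among genes that rose in DMSO, the difference was −4.38 for Thrsp, −3.20 for Retn, −2.64 for G0s2, −1.94 for Scd1, −1.87 for Dgat2, −1.47 for Agt, −1.32 for Herpud1 and −1.18 for Acsl1, while for Gpd1 it was 2.00. Among genes that fell in DMSO, it was 2.53 for Postn, 1.80 for Lox, 1.63 for Cdh11, 1.62 for Fbln5, 1.61 for Ly6a, 1.60 for Pdp1, 1.44 for Igf1, 1.32 for Dpysl3, 1.30 for Acsl5, 1.20 for Pdgfra, 1.17 for Apod, 1.05 for Sparc and 0.83 for Ccnd1. Without replicate A 1 of these 22 differences passed the threshold, and without replicate C 2 did.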

How the results depend on the processing

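In total reads the calls between day 1 and day 3 ran from 564 to 1916 higher and from 634 to 1835 lower when replicates were left out in turn, the lowest being without A. A fit of only the 6 libraries of these days gave 1189 higher and 1289 lower, with 2436 of the 3090 main calls kept. Named total calls lost in that fit were Acaca, Cd68, Cebpd, Cidea, Col11a2, Col7a1, Fads1, Mcm3, P4hb, Plin3, Ppargc1a, Prim1 and Senp2. Pparg and Thbs1 gained a call there. In labelled reads the calls ran from 32 to 115 higher and from 55 to 137 lower with a replicate left out, and scaling by the labelled reads gave 154 higher and 106 lower. The labelled share had 3 genes lower with a filter of 10 summed reads, 1 lower without a filter, and between 0 and 1 higher and 0 and 1 lower with a replicate left out. For ML-792 the same ranges were 765 to 2019 higher and 715 to 1852 lower in total reads, and 36 to 79 higher and 12 to 70 lower in labelled reads. The difference between treatments in total reads had 350 higher and 250 lower with the replicate block, 243 and 202 with DESeq2, and 6 to 172 higher and 2 to 160 lower with a replicate left out. In labelled reads it had 1 and 2 with the block, 1 and 1 with DESeq2, and 0 to 1 and 0 to 2 with a replicate left out. The cause was not tested.

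The replicate block gave 2079 higher and 2102 lower in total reads, with 3079 of the 3090 calls shared in direction, and changed no named total call beyond those given in the report. In labelled reads, where the same letters correlated at 0.0652 (A), 0.11 (B) and 0.044 (C) and different letters at −0.101 to 0.0532, the block gave 119 and 182. DESeq2 gave 1867 and 1964 in total reads, 3087 shared, and 114 and 164 in labelled reads. No direction reversed in a called gene. Summed over all entries, libraries held 146222 to 285203 labelled reads, and the smallest change detectable at that depth was not computed.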
